A study of Mus with 10 samples.

Results

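The 5 genes of the Ikaros family, Ikzf1 to Ikzf5, were examined in type 1 innate lymphoid cells (ILC1s) from mouse liver. The members were taken by symbol from the 24564 genes of the deposited count table, and all 5 were present. They were chosen with the comparison of the genotypes already known, and selected on their read counts in that contrast. The differences between genotypes given below for Ikzf1 to Ikzf5 are therefore descriptions and carry no test.

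ILC1s are liver-resident lymphocytes that carry the activating receptor NKp46, the product of Ncr1, and the study asked how NKp46 shapes them. RNA was sequenced from 5 libraries of Ncr1+/+ and 5 libraries of Ncr1gfp/gfp liver ILC1s, all from C57BL/6 mice, male or female, aged 6 to 8 weeks. In Ncr1gfp/gfp mice gfp replaces Ncr1 in the germline, so every cell of the animal carries the replacement. Ncr1+/+ ILC1s were sorted as lineage-negative, NK1.1+, NKp46+, CD49b-, CD49a+ cells, whereas in Ncr1gfp/gfp mice GFP stood in for NKp46, so the gate and the genotype cannot be told apart. The study describes the material as RNA pools but does not state how many mice went into a library, and p-values then measure the spread between these libraries only.

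The family encodes zinc finger transcription factors named Ikaros (Ikzf1), Helios (Ikzf2), Aiolos (Ikzf3), Eos (Ikzf4) and Pegasus (Ikzf5). The proteins bind DNA through their N-terminal zinc fingers and pair with each other through C-terminal ones, so that members expressed in one cell can act together. In lymphocytes they recruit chromatin complexes such as NuRD and SWI/SNF, Ikaros and Aiolos set the pace of lymphocyte development, and Helios and Eos are best known from regulatory T cells.

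Coordinates in the deposited table come with no build name and differ from mm10, the build the study states for mapping. There, Ikzf1 is listed on chromosome 11, plus strand, at positions 11585928 to 11672929, with 5664 exonic bases. Ikzf3 is on the same chromosome, minus strand, at positions 98326007 to 98407345 with 4098 exonic bases. Ikzf2 is on chromosome 1, minus strand, at positions 69577784 to 69732534, and its 9421 exonic bases are the most of the family. Ikzf4 is on chromosome 10, minus strand, at positions 128067899 to 128083049 with 5224 exonic bases, and Ikzf5 on chromosome 7, minus strand, at positions 138532163 to 138553992 with 4390. No member overlapped another listed gene. The closest neighbour was Acadsb, on the opposite strand 123 bases from Ikzf5, and the protocol does not mark strand. Counts are per gene, so the splice forms of Ikaros and Helios, some of which lack DNA-binding fingers, were not resolved.

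Total counts were between 15796253 and 21975879 in the Ncr1gfp/gfp libraries and between 17996935 and 22623133 in the Ncr1+/+ libraries. Counts are given as CPM, counts relative to a library size scaled by TMM. Ncr1 itself was read at 141 to 356 CPM in the Ncr1gfp/gfp libraries and at 1913 to 2144 CPM in the others, so reads on the replaced gene remained at 12.8% of the Ncr1+/+ level. The genotype comparison across 11463 tested genes (edgeR quasi-likelihood fit, p adjusted by Benjamini-Hochberg and under 0.05) left 155 genes past the adjusted p alone, 90 lower and 65 higher in Ncr1gfp/gfp. With a fold change above 1.5 or below 0.7 in addition, 84 genes were called, 61 lower and 23 higher.

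Ikzf3 and Ikzf1 made up nearly all of the family's transcripts in both genotypes. Per exonic length, in CPM per kilobase (RPKM, computed here), Ikzf3 averaged 219.7 over the 10 libraries, with a range from 206.0 to 236.9, and ranked 133 among the 11463 tested genes. Ikzf1 averaged 181.6 RPKM, between 164.9 and 196.5, and ranked 173. Aiolos and Ikaros transcripts were thus both in the top 2% of tested genes, at percentiles 98.8 and 98.5. Ikzf2 averaged 9.20 RPKM (6.26 to 11.4) and Ikzf5 averaged 7.90 RPKM (7.23 to 8.90), close to the middle of the tested genes, at percentiles 44.3 and 40.2. Ikzf4 averaged 0.185 RPKM (0.0338 to 0.436), at percentile 1.37.

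**Figure D1:**
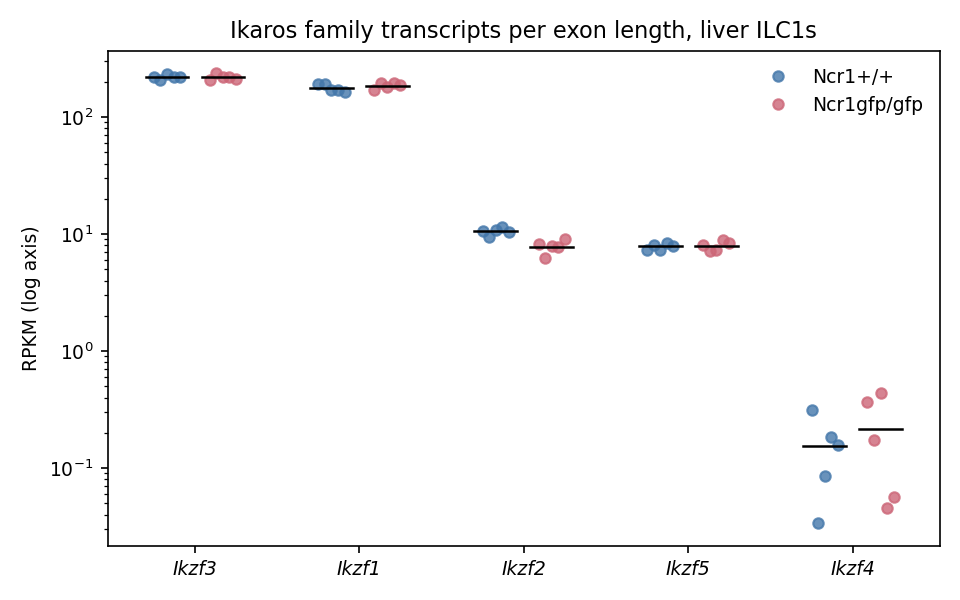
Levels of the 5 Ikaros family genes in RPKM on a log axis, one point per library and a line at the mean of the 5 libraries of each genotype. Ikzf3 and Ikzf1 lie between 164.9 and 236.9 RPKM, Ikzf2 and Ikzf5 between 6.26 and 11.4 RPKM, and Ikzf4 at or below 0.436 RPKM.

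The order of the RPKM levels was the same in most libraries. Ikzf3 exceeded Ikzf1 in 10 of 10 libraries, by a ratio of 1.21 between the means and from 1.08 to 1.39 within a library. This order rests on dividing by exonic length, 4098 bases for Ikzf3 and 5664 for Ikzf1. In CPM the means ran the other way, with Ikzf1 at 1053 and Ikzf3 at 897.6 in Ncr1gfp/gfp, and 1004 and 903.0 in Ncr1+/+. Ikzf1 exceeded Ikzf2 in 10 of 10 libraries, by between 14.9 and 31.1 times. Ikzf2 and Ikzf5 were the neighbours that did not differ beyond their spread, since Ikzf2 was above Ikzf5 in 8 of 10 libraries, with ratios from 0.867 to 1.48. The 2 exceptions were Ncr1gfp/gfp libraries 2 and 4, where Ikzf2 had 6.26 and 7.75 RPKM and Ikzf5 had 7.23 and 8.90 RPKM. Ikzf5 exceeded Ikzf4 in 10 of 10 libraries, at least 16.7 times.

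Ikzf1, which encodes Ikaros, the founding member needed for the lymphoid lineages, was read at 1087, 1081, 955, 962 and 934 CPM in Ncr1+/+ libraries 1 to 5. In Ncr1gfp/gfp libraries 1 to 5 it was read at 961, 1103, 1033, 1113 and 1057 CPM. The genotypes overlapped, with 2 Ncr1gfp/gfp libraries above the highest Ncr1+/+ library and none below the lowest. The means were 1053 ± 61.2 CPM in Ncr1gfp/gfp and 1004 ± 73.9 CPM in Ncr1+/+ (mean ± SD, n = 5 libraries each), and the fitted log2 fold change was 0.07 with a standard error of 0.05. Expressed as a share, Ncr1gfp/gfp ILC1s held 104.9% of the Ncr1+/+ level, with a 95% interval of the fit from 97.1% to 113.3%.

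Ikzf3, which encodes Aiolos, the partner most similar to Ikaros and a factor of late lymphocyte maturation, was read at 904, 848, 963, 902 and 897 CPM in the Ncr1+/+ libraries. It was read at 844, 971, 901, 897 and 875 CPM in the Ncr1gfp/gfp libraries. The lowest and the highest of the 10 values were both Ncr1gfp/gfp, libraries 1 and 2, and the remaining Ncr1gfp/gfp libraries fell inside the Ncr1+/+ range. The means were 897.6 ± 46.7 and 903.0 ± 40.7 CPM in Ncr1gfp/gfp and Ncr1+/+ (SD, n = 5 libraries each), and the log2 fold change was -0.01 with a standard error of 0.05. The level in Ncr1gfp/gfp was 99.4% of that in Ncr1+/+, with a 95% interval from 92.9% to 106.4%.

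Ikzf2, which encodes Helios, was lower in Ncr1gfp/gfp ILC1s and was the member whose libraries separated by genotype. Its CPM was 100.1, 89.6, 103, 108 and 98.1 in Ncr1+/+ libraries 1 to 5. In Ncr1gfp/gfp libraries 1 to 5 its CPM was 76.9, 59.0, 74.4, 73.0 and 84.9. Every Ncr1gfp/gfp value lay below every Ncr1+/+ value, with the closest pair being 84.9 CPM in Ncr1gfp/gfp library 5 and 89.6 CPM in Ncr1+/+ library 2. The lowest value, 59.0 CPM in Ncr1gfp/gfp library 2, stood below the other 4 of its genotype.

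Behind these values were between 1211 and 1427 reads on Ikzf2 per Ncr1gfp/gfp library and between 1785 and 2133 per Ncr1+/+ library. Counting error alone would give a coefficient of variation of at most 2.87% at these depths, against 12.7% between Ncr1gfp/gfp and 6.71% between Ncr1+/+ libraries. The means were 73.7 ± 9.39 and 99.6 ± 6.69 CPM (SD, n = 5 libraries each), and the log2 fold change was -0.44 with a standard error of 0.09. Ncr1gfp/gfp ILC1s thus held 73.9% of the Ncr1+/+ level of Ikzf2, with a 95% interval of the fit from 65.3% to 83.6%. Because Ikzf2 was chosen on these values, the interval is a description and not a test. On the RPKM scale the difference in level was -2.76 (7.82 in Ncr1gfp/gfp and 10.6 in Ncr1+/+). The decrease did not reach the fold change of 0.7 used for calling, and 705 of the 11463 tested genes had a lower log2 fold change. Without Ncr1gfp/gfp library 2 the log2 fold change was -0.37.

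**Figure D2:**
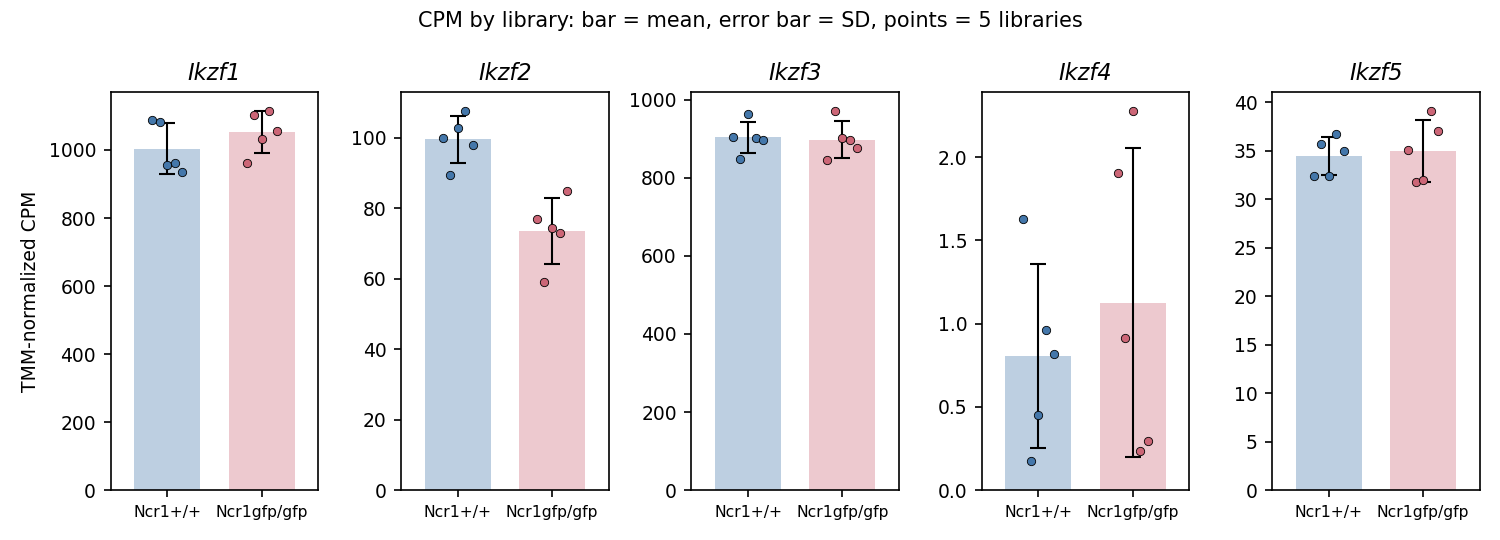
TMM-normalized CPM of each Ikaros family gene, one panel per gene with its own linear axis from 0, points for the 5 libraries of each genotype, bars for the mean and error bars for the SD. The Ikzf2 points of Ncr1gfp/gfp, from 59.0 to 84.9 CPM, all lie under those of Ncr1+/+, from 89.6 to 108 CPM, and the points of the other genes overlap.

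Ikzf5, which encodes Pegasus, the most divergent and most widely expressed member, was read at 32.4, 35.7, 32.3, 36.7 and 34.99 CPM in the Ncr1+/+ libraries. It was read at 35.1, 31.7, 32.0, 39.1 and 37.0 CPM in the Ncr1gfp/gfp libraries. The Ncr1gfp/gfp values spread to both sides of the Ncr1+/+ values, 2 below and 2 above them. The means were 34.97 ± 3.19 and 34.4 ± 1.99 CPM (SD, n = 5 libraries each). The log2 fold change was 0.02 with a standard error of 0.09, and the level 101.5% with a 95% interval from 88.6% to 116.3%.

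Ikzf4, which encodes Eos, was read from between 4 and 43 counts per library. Its CPM was 1.63, 0.176, 0.450, 0.959 and 0.816 in Ncr1+/+ libraries and 1.90, 0.914, 2.28, 0.238 and 0.298 in Ncr1gfp/gfp libraries 1 to 5. High and low libraries occurred in both genotypes. A count of 3 corresponds to between 0.132 and 0.190 CPM, so the lowest libraries were just above the detection limit. The fitted log2 fold change was 0.49 (standard error 0.68), a level of 140.7% with a 95% interval from 52.6% to 375.9%. A difference between genotypes was not detectable for Ikzf4 at this depth.

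Among the 5 members, 1 (Ikzf2) was lower in every Ncr1gfp/gfp library than in every Ncr1+/+ library, a separation found in that direction for 1.82% of tested genes. The same member was the 1 of 5 that lay past the adjusted p alone on the lower side, where 0.785% of tested genes lay. None of the 5 was called with the fold change threshold on the lower side, where 0.532% of tested genes were called. The edgeR quasi-likelihood test with no adjustment placed 1 of the 5 members under p of 0.05, beside 11.4% of tested genes in either direction. Since these values chose the members, the counts describe the selection. The median log2 fold change of the members was 0.02, and over all tested genes it was 0.00, with a median size of 0.10.

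The members were also set against each other within each library. Summed over the family, RPKM was 421.0 ± 19.8 in Ncr1gfp/gfp and 416.2 ± 10.95 in Ncr1+/+ libraries (SD, n = 5 each), and the ranges, 392.2 to 445.3 and 402.4 to 430.9, overlapped. Ikzf3 contributed 52.5% of this sum on average over the 10 libraries, Ikzf1 43.4%, Ikzf2 2.20%, Ikzf5 1.89% and Ikzf4 0.0445%. These shares, and the ratios that follow, do not depend on the scaling between libraries. The share held by Ikzf2 was between 1.41% and 2.16% in Ncr1gfp/gfp and between 2.29% and 2.79% in Ncr1+/+ libraries.

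For each 100 of Ikzf1, on the RPKM scale, there were 4.81, 3.22, 4.33, 3.95 and 4.83 of Ikzf2 in Ncr1gfp/gfp libraries 1 to 5. In Ncr1+/+ libraries 1 to 5 there were 5.53, 4.98, 6.47, 6.73 and 6.31. The ranges did not overlap, although the highest Ncr1gfp/gfp library (4.83) and the lowest Ncr1+/+ library (4.98) came close. Against Ikzf3 the gap was wider relative to the spread. There were 3.59 ± 0.599 of Ikzf2 per 100 of Ikzf3 in Ncr1gfp/gfp (2.64 to 4.22) and 4.80 ± 0.236 in Ncr1+/+ (4.59 to 5.19). Ikzf1 and Ikzf3 themselves stood at 104.9% and 99.4% of the Ncr1+/+ level. The ratios and the share of Ikzf2 therefore restate the Ikzf2 values that chose it and are no separate evidence.

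**Figure D3:**
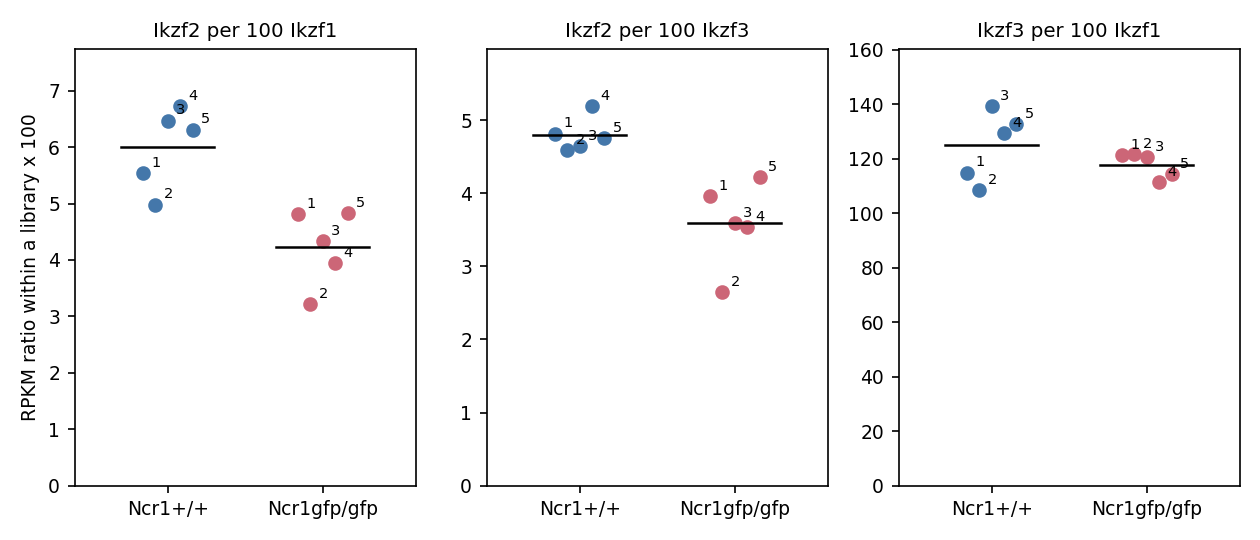
Ratios of RPKM within a library, multiplied by 100, for Ikzf2 to Ikzf1, Ikzf2 to Ikzf3 and Ikzf3 to Ikzf1, with the library number beside each point, a line at the mean of 5 libraries and linear axes from 0. Both ratios with Ikzf2 separate the genotypes, as the Ikzf2 CPM that chose the member already did. Ikzf3 to Ikzf1 overlaps, from 111.4 to 121.7 in Ncr1gfp/gfp and from 108.5 to 139.3 in Ncr1+/+.

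The ratio of Aiolos to Ikaros transcripts overlapped between genotypes. Ikzf3 stood at 117.9 ± 4.69 per 100 of Ikzf1 in Ncr1gfp/gfp and at 125.0 ± 12.9 in Ncr1+/+ libraries (SD, n = 5 each). In Ncr1+/+ the libraries lay apart, with 114.9 and 108.5 in libraries 1 and 2 and between 129.6 and 139.3 in libraries 3 to 5. Ikzf5 stood at 4.29 ± 0.420 and 4.45 ± 0.444 per 100 of Ikzf1 in Ncr1gfp/gfp and Ncr1+/+, again with overlap.

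The members differed in how steady they were between libraries of one genotype. Ikzf3 had the lowest coefficient of variation in CPM in both, 5.20% in Ncr1gfp/gfp and 4.51% in Ncr1+/+. Ikzf1 had 5.81% and 7.36%, Ikzf2 12.7% and 6.71%, so that the order of these members differed between genotypes. Ikzf5 had 9.11% and 5.79%, where counting error alone would give between 3.52% and 4.26%. Ikzf4 had 82.5% and 68.5%, and its counting error alone reached between 15.2% and 50%.

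After removal of the genotype means, the 10 libraries also showed how the members varied with each other on the log2 CPM scale, given here as description. Ikzf1 and Ikzf3 were almost unrelated (Pearson's r = 0.07 over 10 libraries). Ikzf2 ran against Ikzf1 (r = -0.46) and Ikzf3 (r = -0.36) and with Ikzf5 (r = 0.41), while Ikzf3 and Ikzf5 ran apart (r = -0.55). Ikzf4, at few counts, ran against Ikzf5 (r = -0.60) and Ikzf1 (r = -0.40). All 10 points of each pair share library, depth and scaling, and the deviations of Ikzf1, Ikzf3 and Ikzf5 spanned no more than 0.25, 0.20 and 0.30 on the log2 scale.

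By the same measure, the tested genes most like Ikzf2 were Sfswap (r = 0.93), Kdm5c (r = 0.92) and Rsph3b (r = 0.91), and the most opposite was Ms4a6d (r = -0.94), over 10 libraries. Sfswap and Kdm5c, a splicing regulator and a histone demethylase, averaged 115.0 and 237.6 CPM, whereas Rsph3b and Ms4a6d averaged 1.32 and 0.995 CPM. The genes most like Ikzf1 were Caprin1 (0.96), Miga1 (0.92) and Tut1 (0.91), with Acvr1c (-0.98) most opposite. Those most like Ikzf3 were H2afv (0.96), Nt5e (0.93) and Sec11a (0.91), with Mtcp1 (-0.93) most opposite. Those most like Ikzf5 were Isoc1 (0.95), Cdkl3 (0.93) and Ttc13 (0.92), with Lsm1 (-0.98) most opposite. These are the extremes of 11463 genes over 10 libraries, with no test.

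The chromatin partners of the family were expressed in these cells. All 18 listed genes of the NuRD complex and other corepressors were tested, and the highest per length were Mbd2, a reader of methylated DNA, at 114.6 RPKM and Chd4, the remodelling ATPase of NuRD, at 106.0 RPKM. Of these 18 genes, 0 passed edgeR's adjusted p in either direction, 1 was under an unadjusted p of 0.05 (11.4% of all tested genes were), and DESeq2 and limma-voom also passed 0. Their median log2 fold change was 0.03, with 8 below 0, beside 0.00 over all tested genes. Of 16 SWI/SNF subunits, led by the DNA-binding subunit Arid1a (120.1 RPKM) and the core subunit Smarcc2 (57.6 RPKM), 0 passed by edgeR, DESeq2 or limma-voom and 0 were under an unadjusted p of 0.05, with a median of -0.01.

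Ikaros and Aiolos are known as substrates of the cereblon ubiquitin ligase when thalidomide-like drugs are bound, and casein kinase 2 phosphorylates Ikaros. The 8 listed genes of the ligase and the kinase were all tested. The highest were Csnk2b, the regulatory subunit of the kinase, at 77.3 RPKM and Ddb1, the ligase's adaptor, at 69.5 RPKM. Of these 8 genes, 0 passed edgeR's adjusted p, and DESeq2 and limma-voom passed 0. Under edgeR's unadjusted p of 0.05 there were 0, beside 11.4% of all tested genes. Fitted log2 fold changes ran from -0.09 to 0.09.

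Of 33 listed genes known from other lymphocytes as regulated by Ikaros factors, 25 were tested, and 4 were lower and 1 higher in Ncr1gfp/gfp ILC1s by the adjusted p alone, where 0.785% and 0.567% of tested genes lay. The list was written with results of these data known, so its count is not independent evidence. The median log2 fold change of the 25 genes was -0.13, with 16 (64%) below 0, beside 49.3% of all tested genes. Of the 25, 12 were under edgeR's unadjusted p of 0.05, beside 11.4% of all tested genes. The same limit applies to these counts. The highest of the list were Junb, an AP-1 subunit, at 337.0 RPKM and Ccnd2, cyclin D2, at 273.9 RPKM. Rag2, Igll1 and Notch3 had 0 counts in all 10 libraries.

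The genes that were lower encode cytokine receptor chains and AP-1 subunits. Il2ra, the alpha chain of the interleukin-2 receptor, had 14.3 to 20.9 CPM in Ncr1gfp/gfp and 33.4 to 47.9 CPM in Ncr1+/+ libraries, with no overlap. Its log2 fold change was -1.24 (standard error 0.13, edgeR quasi-likelihood adjusted p = 7.08e-06). Il7r, the alpha chain of the interleukin-7 receptor, fell by 0.97 on the log2 scale (standard error 0.19, edgeR adjusted p = 0.00773), with 45.1 to 135.4 CPM against 131.5 to 198.9 CPM. The study had already reported lower RNA of both receptor genes in Ncr1gfp/gfp ILC1s, and it found less of both proteins by flow cytometry.

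Fos had 42.6 to 104.5 CPM in Ncr1gfp/gfp and 54.1 to 243.4 CPM in Ncr1+/+ libraries, and a log2 fold change of -1.21 (standard error 0.29, edgeR adjusted p = 0.0377). Junb had 454.0 to 571.0 CPM against 498.4 to 904.5 CPM, and a log2 fold change of -0.46 (standard error 0.11, edgeR adjusted p = 0.0334). Both are immediate early genes, and for both the libraries of the genotypes overlapped. Fos and Junb stayed past the adjusted p in 8 and 9 of 19 alternative analyses, Il2ra in 19 and Il7r in 18. Junb was lost under DESeq2 and limma-voom and without any 1 of Ncr1gfp/gfp libraries 2 to 5 or Ncr1+/+ libraries 1, 2 and 4. Fos was lost under the same tools, with library number as a block, and without any 1 of Ncr1gfp/gfp libraries 1, 2, 3 and 5 or Ncr1+/+ libraries 1, 2 and 4.

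Cd8a, a T cell coreceptor gene, was higher, with 11.8 to 36.4 CPM in Ncr1gfp/gfp and 1.35 to 9.70 CPM in Ncr1+/+ libraries (log2 fold change 1.53, standard error 0.35, edgeR adjusted p = 0.0248). It stayed past the adjusted p in 14 of the 19 alternatives, and was lost without Ncr1gfp/gfp library 3 or 4, without Ncr1+/+ library 2 or 4, and under DESeq2.

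**Figure D4:**
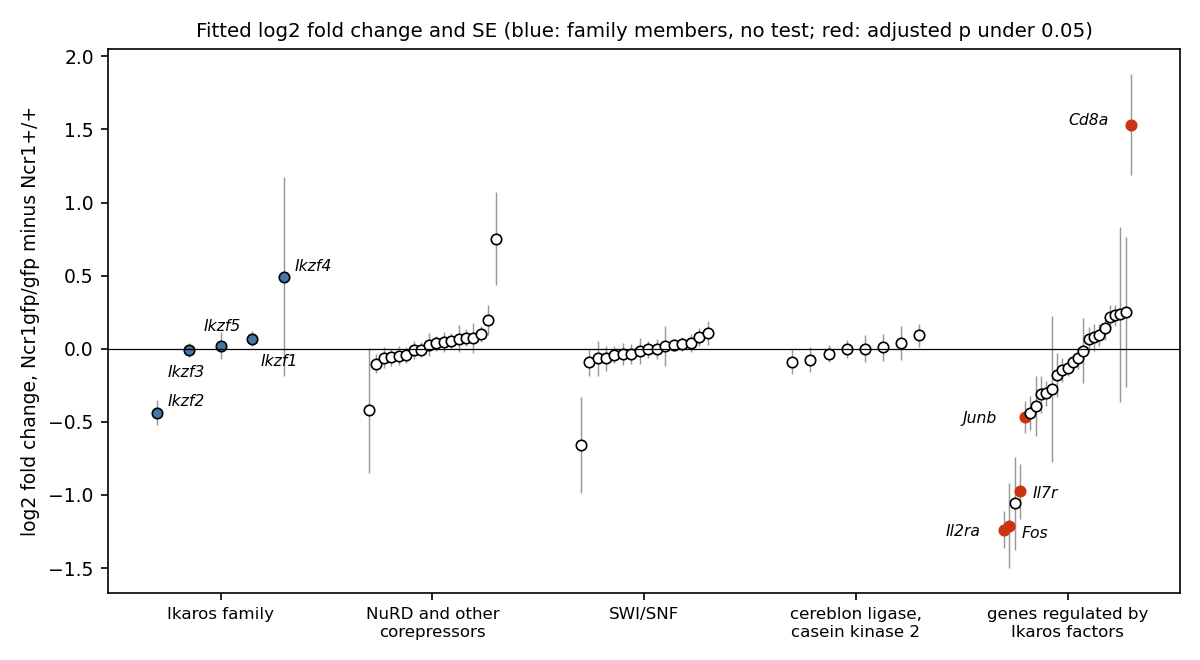
Fitted log2 fold change of Ncr1gfp/gfp against Ncr1+/+ ILC1s for each tested gene of the Ikaros family and 4 lists of partners and regulated genes, with error bars for the standard error. Blue points are the family, shown with no test, red points lie past an edgeR adjusted p of 0.05 and open points do not, and all 5 red points belong to the list of genes regulated by Ikaros factors.

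Markers of the cell types a liver sort can hold were set beside these values. Of the 9 ILC1 markers listed, 8 were found by symbol and all 8 were read in every library. Ncr1 and Il7r were lower and Itga1, which encodes CD49a, was higher by edgeR's adjusted p, and the other 5 did not pass. Because the RNA came from bulk sorted cells, fewer cells that express a gene and less RNA of it per cell cannot be told apart. The summed CPM of 11 conventional NK cell markers was between 2765 and 4543 in Ncr1gfp/gfp and between 2449 and 2771 in Ncr1+/+ libraries, most of it Gzmb. Without Gzmb the sums were 555 to 646 and 527 to 542 CPM, with no overlap. Of the 9 tested NK cell markers, 8 had a log2 fold change above 0 and 1 below, and Gzmb and Itgam were higher by the same test. The Itgam libraries did not overlap, at 76.0 to 121 CPM in Ncr1gfp/gfp and 43.3 to 58.8 CPM in Ncr1+/+. The Gzmb libraries overlapped, at 2199 to 3965 CPM in Ncr1gfp/gfp and 1914 to 2229 CPM in Ncr1+/+. By flow cytometry, which reads protein rather than RNA, the study found less granzyme B in Ncr1gfp/gfp ILC1s. Eomes, the defining NK cell factor, overlapped at 5.06 to 17.7 and 5.85 to 8.35 CPM, and Klra4 had 0 counts.

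The sum of 10 T cell markers was between 810 and 992 CPM in Ncr1gfp/gfp and between 638 and 738 CPM in Ncr1+/+ libraries, and without Cd3g it overlapped, at 165 to 263 and 184 to 223 CPM. Of 7 tested T cell markers, Cd3e, Cd3g and Cd8a were higher and Cd28 lower by edgeR's adjusted p. Cd3e (9.05 to 38.8 CPM in Ncr1gfp/gfp, 2.80 to 6.85 CPM in Ncr1+/+), Cd3g and Cd8a were each higher in every Ncr1gfp/gfp library than in every Ncr1+/+ library. Cd28 went the other way, at 10.2 to 31.5 and 35.2 to 51.0 CPM. Bcl11b, the largest part of the sum without Cd3g, had means of 133.2 and 134.1 CPM. Ncr1gfp/gfp library 2, the lowest in Ikzf2, had the highest sum of both lists, but not without Gzmb and Cd3g, when it had 579 CPM of NK cell markers and 199 CPM of T cell markers, inside the range of its genotype. The part of these cell types in the Ikzf2 difference was not tested. Foxp3, the defining factor of regulatory T cells, which express Ikzf2 and Ikzf4, had 0 counts in 6 libraries and at most 0.221 CPM in the others. The 6 regulatory T cell markers together summed to 8.09 to 12.8 CPM in Ncr1gfp/gfp and 7.51 to 17.2 CPM in Ncr1+/+ libraries. This list includes Ikzf4 itself, and its largest part was Tnfrsf4, with means of 7.41 CPM in Ncr1gfp/gfp and 6.86 CPM in Ncr1+/+. Of the 4 tested, 1 had a log2 fold change below 0 and 3, with Ikzf4 among them, above 0. The 1 below was Ctla4, at 0.119 to 1.64 CPM in Ncr1gfp/gfp and 1.74 to 8.02 CPM in Ncr1+/+ (edgeR quasi-likelihood adjusted p = 0.056). Its libraries did not overlap, as for 1.82% of tested genes in that direction, and its relation to Ikzf2 was not tested.

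Sums were low for B and plasma cell markers (0.561 to 6.20 CPM over all libraries), for ILC2 and ILC3 markers (3.93 to 10.5 CPM, with Il22 and Il17a at 0 counts) and for macrophage markers (10.2 to 77.9 CPM). Hepatocyte markers summed to between 123 and 211 CPM, mostly Trf, and without Trf they reached 66.1 CPM in Ncr1gfp/gfp library 3 and 34.1 CPM in Ncr1+/+ library 1. Without both of these libraries the log2 fold change of Ikzf2 was -0.44.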

How the data were processed

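RNA from sorted liver ILC1s was amplified with polyA-primed SMART-Seq chemistry, which does not mark strand, and sequenced from one end. The authors trimmed reads with Trimmomatic and FASTP, used STAR to map them to mm10 and HTSeq with its default settings to count them by gene, and deposited the raw counts. The coordinates in the table name no build, differ from those of mm10 and are printed as deposited. Genotypes and library numbers came from the sample labels, and libraries are named Ncr1gfp/gfp and Ncr1+/+ 1 to 5.

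Genes were filtered with filterByExpr, scaled by TMM and fitted with edgeR's quasi-likelihood test on genotype, with Benjamini-Hochberg adjustment over all 11463 tested genes (edgeR 4.0.16, R 4.3.3). Genes were called at an adjusted p under 0.05 with a fold change above 1.5 or below 0.7, and a second rule used the adjusted p alone. RPKM was computed here as CPM per kilobase of the exon length in the table. Intervals of fold changes are 95% intervals of the fit, and for the members, chosen on these values, they carry no test. Scripts were tested on simulated data.

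The members, gene lists and marker lists were chosen with earlier results of these data known. Named genes were the members, Ncr1, in each partner or target list the genes past the adjusted p and the 2 with the highest RPKM, and for each member with at least 1 CPM the 3 most and the 1 least correlated genes. Ikzf4, though above 1 CPM in some libraries, fell below that mean and got none. No pair of libraries of one genotype agreed within sampling noise (chi-square per gene of at least 9.18). Alternatives were other scalings, DESeq2 1.42.0, limma-voom (limma 3.58.1), other filters, a replicate block and leaving out each library. The marker Zfp683 was not found under that symbol and is not reported here.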

Additional observations from a re-analysis of the deposited data

Results flagged for a closer look

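The summed CPM of 8 hepatocyte markers was far from the other libraries of its genotype in 2 libraries. Ncr1gfp/gfp library 3 reached 211 CPM, where the next library had 146.7 CPM, and Ncr1+/+ library 1 reached 180.3 CPM, where the next had 146.2 CPM. Each was set apart by a gap of more than 0.71 of the range of its 5 libraries. With 38 groups of values examined, chance alone would set apart about 1.9, that is 1 in 20. Ikzf2 had 74.4 CPM in Ncr1gfp/gfp library 3 and 100.1 CPM in Ncr1+/+ library 1, both the middle value of their genotype.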

How the results depend on the processing

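The log2 fold changes of the members kept within the spread between libraries under every alternative that gave a value. Ikzf2 stayed between -0.49 and -0.37 in 19 alternatives, given as a description, since its values in this contrast chose it. Ikzf1 stayed between 0.04 and 0.10 and Ikzf4 between 0.06 and 0.91 (18 alternatives, since a minimum of 10 counts in every library removed it), while Ikzf3 (-0.04 to 0.01) and Ikzf5 (-0.02 to 0.06) took both signs. The order of the members by mean RPKM was the same in 11 of 11, none of which changed the exon lengths. Leaving out 1 library at a time gave 60 to 98 called genes, 100 to 160 past the adjusted p alone and 2 to 7 listed partner and target genes. DESeq2 gave 128 called genes, 315 past the adjusted p alone and 3 listed genes. Without a filter on low counts these were 131, 264 and 9, with 16610 genes tested. Limma-voom passed 3 listed genes. Leaving out Ncr1+/+ library 1 and Ncr1gfp/gfp library 3, an alternative chosen after seeing the data, gave 95 genes past the adjusted p alone and 2 listed genes. The cause of these shifts was not tested. Another scaling moved the median log2 fold change of all genes to at most 0.01.

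Same-numbered libraries did not deviate together (correlations from -0.03 to 0.04), so the numbers were not taken as pairs. With the replicate block 87 genes were called, 156 passed the adjusted p alone, 5 listed genes passed, of which 4 were shared with the fit without it (Ifng came in and Fos was lost), and the log2 fold change of Ikzf2 was -0.44. Ikzf4, at 4 to 43 counts, limits what depth allows for that member.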
